A study of Mus musculus with 96 samples.

Results

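The daily time course of transcripts in liver macrophages of Control mice was examined in 12 RNA sequencing libraries out of the 96 of the series, chosen by their labels alone. They comprised 3 libraries at each of 4 zeitgeber times (ZT, hours after lights on), namely ZT4 and ZT10 in the light phase and ZT16 and ZT22 in the dark phase, with lights off at ZT12. All 12 came from male C57BL/6J mice with floxed alleles that had received AAV-TBG-GFP, a virus whose TBG promoter is active in hepatocytes, at 8 weeks of age, and had then eaten the high-fat, high-sucrose diet D12492i for 4 weeks. No gene had been deleted in these mice, but every animal carried the floxed alleles, the virus and the diet, so no chow-fed or uninjected liver is part of the comparison. The labels call the samples liver macrophages and name no sorting marker, and the markers of other liver cells are therefore given with the results. The study's methods speak of biological replicates without saying how many animals each library holds, so p-values measure the spread between these libraries. The question was which transcripts differ between times of day, and in what order through the day they peak.

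Nearly every cell carries a circadian clock, in which BMAL1 (encoded by Arntl) and CLOCK switch on the Period and Cryptochrome genes, whose proteins then block their own activators. A second loop links the repressors REV-ERBα and REV-ERBβ (Nr1d1 and Nr1d2) and the activators of the ROR family, which compete for the same elements in Arntl. PAR bZIP factors such as DBP and their opponent NFIL3 carry the rhythm to output genes. Kupffer cells, the macrophages that reside in liver sinusoids, clear particles, bacteria and old red cells, and recycle heme iron.

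Values are in RPKTM (10 times an RPKM, reads per kilobase scaled to a common library size) and had been quantile normalized, so that all 12 libraries hold the same set of values and a value reflects the rank of a transcript. Sequencing depth is unknown and precision rests on the replicates. The macrophage label was checked against 22 Kupffer cell and resident macrophage genes, of which 21 were found by symbol, and all 21 were above 0 in every library. Clec4f, a lectin of Kupffer cells, stood at 5151, 3855 and 2992 at ZT4, 7571, 7201 and 4479 at ZT10, 4902, 2183 and 1733 at ZT16 and 7201, 3064 and 669 at ZT22. The mean log2 level of the 21 genes was 8.77 to 9.52 at ZT4, 9.29 to 9.92 at ZT10, 8.39 to 9.53 at ZT16 and 7.38 to 10.20 at ZT22, so the widest spread lay within ZT22. The 3 ZT22 libraries also stood apart over all genes tested: their log2 levels correlated with one another at 0.678 to 0.778, against 0.878 to 0.928 within the other times, and their median SD per gene was 0.75 (log2) against 0.37 to 0.42. In ZT16 replicate 1 and ZT22 replicate 1 the most abundant rows differed: Alb, the hepatocyte gene for albumin, held 802616 and 1606981 RPKTM against 33320 to 73347 elsewhere, and the Lars2 transcripts that hold ranks 2 to 4 in the other 10 libraries were at ranks 12 to 14. Hepatocyte RNA was present throughout. The mean log2 level of the 20 hepatocyte markers was 10.96 to 11.18 at ZT4, 10.60 to 11.001 at ZT10, 11.55 to 11.74 at ZT16 and 11.50 to 11.84 at ZT22, with no overlap between light and dark phase libraries. In bulk libraries fewer cells of a type and less RNA per cell cannot be told apart. The part of these differences between libraries in the results below was not tested beyond the fits that are named.

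**Figure D1:**
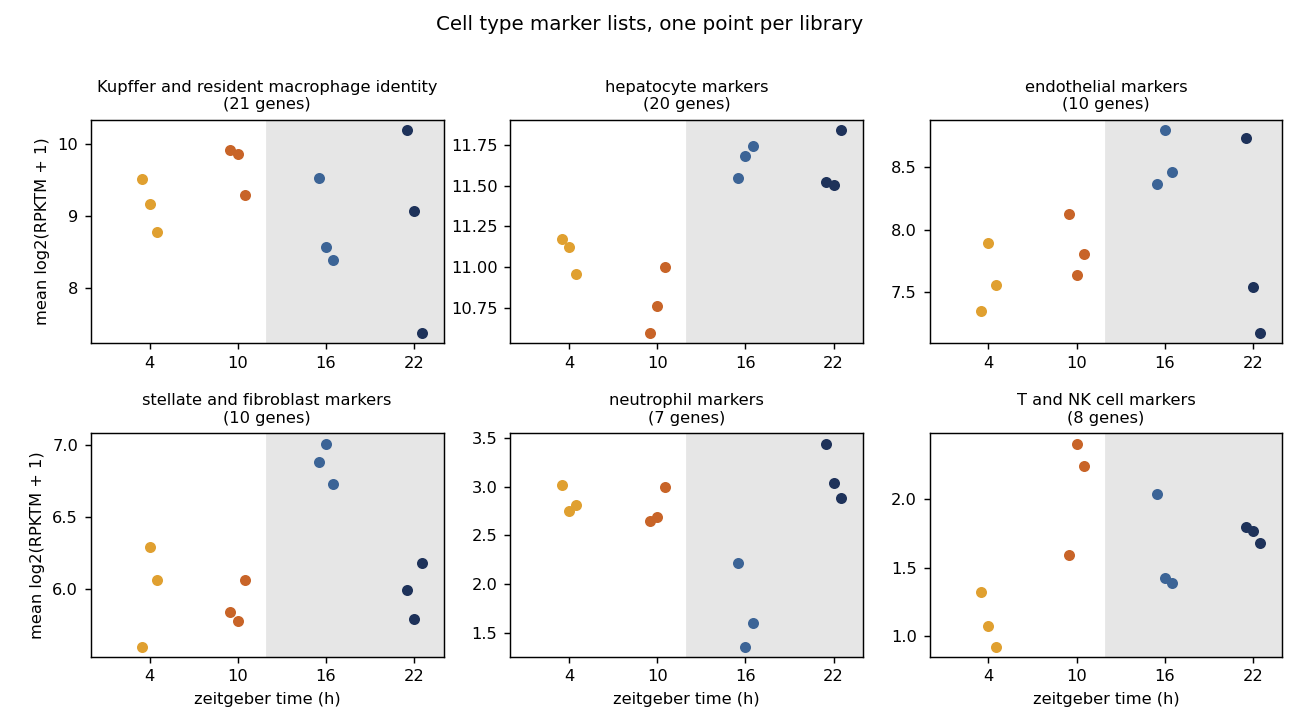
Mean log2(RPKTM + 1) of 6 marker lists (y axis) against zeitgeber time in hours (x axis), 1 point per library and 3 libraries per time, with the dark phase shaded. The macrophage list ranges from 7.38 to 10.20 within ZT22, the hepatocyte list lies higher in all 6 dark phase libraries, and the stellate list is highest in the 3 ZT16 libraries.

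Across 12179 genes tested, no gene passed an adjusted p of 0.05 in the limma F test over the 4 times, in which 1284 genes had an unadjusted p under 0.05 (10.5%). The 24 h cosine test likewise gave 0 genes, with 999 at an unadjusted p under 0.05 (8.2%). Between pairs of times, 2 genes passed for ZT16 minus ZT4 (0.0164%), both lower at ZT16 (Hist1h1d and Dmbt1, below), and 0 for the other 5 pairs. At an unadjusted p under 0.05 the counts were 905 for ZT16 minus ZT4 (7.43%), 962 for ZT22 minus ZT10 (7.9%), 1113 for ZT10 minus ZT4 (9.14%), 709 for ZT16 minus ZT10 (5.82%), 856 for ZT22 minus ZT16 (7.03%) and 2019 for ZT22 minus ZT4 (16.6%). These counts depended on the ZT22 libraries. Without ZT22 replicate 3 the F test gave 275 genes and without ZT22 replicate 1 it gave 94, while leaving out any of the other 10 libraries gave 0 or 1. ZT22 minus ZT4 gave 807 genes without ZT22 replicate 3, 393 without ZT22 replicate 1 and 10 without ZT4 replicate 1. ZT22 minus ZT10 gave 354 without ZT22 replicate 1 and 45 without replicate 3, and ZT22 minus ZT16 gave 44 and 109. Without all 3 ZT22 libraries, 61 genes differed among ZT4, ZT10 and ZT16. With a block for the replicate number, ZT22 minus ZT4 gave 204 genes, ZT10 minus ZT4 gave 9 and the F test gave 0. Same-numbered libraries tended to deviate together, with correlations of 0.00718 to 0.36 against -0.329 to 0.0688 for other numbers. Of the 1284 genes with an unadjusted p under 0.05, 526 were highest at ZT4 (41.0%, against 26.04% of all genes) and 385 at ZT22 (29.98%, against 26.1%), while 488 were lowest at ZT22 (38.0%, against 30.2%) and 421 at ZT4 (32.8%, against 29.7%).

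JTK_CYCLE, a rank test for 24 h patterns, was recoded after the study's description and run on 1 transcript per gene. The series was entered 2 times in a row. A call needed an adjusted p under 0.05 and a ratio of highest to lowest time mean over 1.5. The period and expression limits were not identical to the study's, so the calls may differ from its own. By this rule 2446 genes were called rhythmic (20.1%). Entering the series again adds no data, and with the series entered once the count was 379 (3.11%). Peak times were spread over the day. The largest numbers were 546 at ZT19 and 374 at ZT16, both in the dark phase. A smaller maximum of 356 lay at ZT7 in the light phase, above the 305 at ZT22. The fewest genes, 174, peaked at ZT13, just after lights off. With the series entered once, 97 genes peaked at ZT16 and 90 at ZT19, and 14 at ZT13. Peak times fall on steps of 3 h while samples were 6 h apart, so peaks between sampled times are interpolated. A JTK_CYCLE call in the text below means the rule with the series entered 2 times unless stated, and an F test p under 0.05 is unadjusted.

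**Figure D2:**
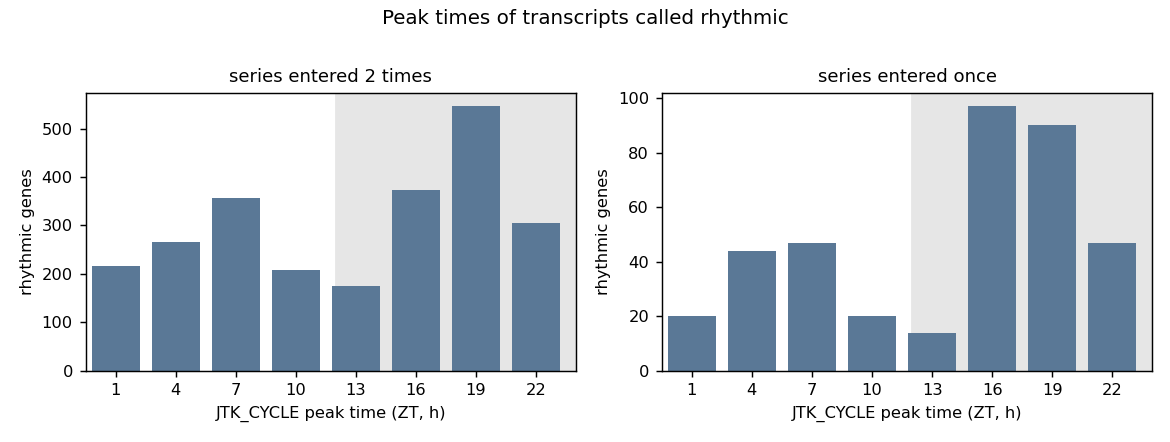
Number of genes called rhythmic by JTK_CYCLE (y axis, from 0) by peak time in hours (x axis), with the series entered 2 times (left, 2446 genes) and once (right, 379 genes), the dark phase being shaded. In both panels ZT16 and ZT19 hold more genes than any other step and ZT13 the fewest.

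Clock genes had larger daily differences than most genes. Of the 20 clock activators, clock repressors and PAR bZIP genes listed, 18 were tested, and 9 of them had an unadjusted F test p under 0.05 (10.5% of all genes did) and 10 were called by JTK_CYCLE (20.1% of all genes), 6 of them also with the series entered once (3.11%). The median difference between the highest and the lowest time mean was 1.91 log2 units over the 18 genes and 0.84 over all genes tested. In 13 of the 18 the libraries of the highest and the lowest time did not overlap (38.5% of all genes). None passed an adjusted p of 0.05 in the F test of 12 libraries. Npas2 and Arntl2, paralogs of Clock and Arntl, did not pass the filter on low values (at least 3 libraries over 5 RPKTM).

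The clock proteins act through short promoter elements, and RefSeq promoter windows (build GRCm38.p6, 250 bases before to 50 after the start) were found by symbol for 15 of the 18 genes. Searched on both strands, CACGTG, the E-box bound by BMAL1 and CLOCK, was found in windows of Per1, Cry1, Ciart, Bhlhe41 and Tef and in 7.15% of all 32851 windows. TTATGTAA, a D-box form bound by DBP and NFIL3, was found in Per3 only among the clock genes and in 0.938% of all windows. TAGGTCA, the core of the element shared by ROR and REV-ERB proteins, was found in Arntl and Nfil3 and in 2.61% of all windows. No match of one motif overlapped one of another in the stretches shown. The stretches below are shown because they hold letter matches to these elements in clock genes whose levels follow. Each is written 5′ to 3′ on the gene's own strand with the match in capitals. For Nfil3 the match is on the opposite strand. For Arntl 30 bases around the match, which starts 30 bases after the second annotated start, are given. A match of letters is a description and not a site shown to be bound.
Cry1, chr10:85185055-85185304, minus strand: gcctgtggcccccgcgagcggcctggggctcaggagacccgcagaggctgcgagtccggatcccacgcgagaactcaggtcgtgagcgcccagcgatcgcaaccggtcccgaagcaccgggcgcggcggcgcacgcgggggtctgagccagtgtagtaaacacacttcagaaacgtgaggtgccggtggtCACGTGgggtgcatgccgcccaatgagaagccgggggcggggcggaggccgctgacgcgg
Ciart, chr3:95882229-95882478, minus strand: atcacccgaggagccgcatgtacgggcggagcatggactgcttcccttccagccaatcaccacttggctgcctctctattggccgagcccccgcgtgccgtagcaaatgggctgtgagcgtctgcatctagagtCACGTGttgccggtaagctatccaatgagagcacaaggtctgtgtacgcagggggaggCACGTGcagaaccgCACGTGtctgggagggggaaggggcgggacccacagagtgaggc
Per3, chr4:151044666-151044915, minus strand: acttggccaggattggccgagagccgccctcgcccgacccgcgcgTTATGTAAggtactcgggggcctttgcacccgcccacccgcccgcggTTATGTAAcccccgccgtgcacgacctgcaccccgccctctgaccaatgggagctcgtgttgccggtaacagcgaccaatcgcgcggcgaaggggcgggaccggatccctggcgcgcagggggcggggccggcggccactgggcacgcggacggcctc
Nfil3, chr13:52981040-52981289, minus strand: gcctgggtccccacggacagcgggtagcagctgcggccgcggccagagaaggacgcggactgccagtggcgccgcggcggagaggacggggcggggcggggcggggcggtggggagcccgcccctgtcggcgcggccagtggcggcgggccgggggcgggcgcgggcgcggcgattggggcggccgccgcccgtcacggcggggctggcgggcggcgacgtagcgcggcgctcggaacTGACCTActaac
Arntl, chr7:113207530-113207559, plus strand: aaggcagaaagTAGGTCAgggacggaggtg

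Among the 4 activators tested, Arntl was the one with an unadjusted F test p under 0.05. Its levels were 13.4, 31.4 and 9.94 at ZT4, 9.19, 4.03 and 10.3 at ZT10, 8.21, 21.3 and 22.3 at ZT16 and 22.7, 33.2 and 58.4 at ZT22 RPKTM. The ZT22 libraries all lay above the ZT10 libraries, and the difference was 2.13 ± 0.55 log2 units (± SE here and below, F test adjusted p = 0.39 by limma), with a JTK_CYCLE call that peaked at ZT22. Clock, its partner, was at 87.4 ± 9.92 (SD, n = 3) at ZT10 and 107 ± 29.9 at ZT22, and the ranges of its 4 times overlapped. Rora, an activating receptor of the ROR family, overlapped between times as well, with means from 41.1 at ZT10 to 62.1 at ZT22.

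The REV-ERB repressors were highest in the light phase. Nr1d1 stood at 18.1, 96.2 and 155 at ZT4, 24.8, 31.8 and 40.7 at ZT10, 19.4, 5.57 and 9.53 at ZT16 and 2.85, 13.8 and 7.398 at ZT22. Time means went down from ZT4 to ZT22 in order, with a wide spread at ZT4, where replicate 1 lay below the ZT10 libraries and within the ZT16 range, and ZT4 exceeded ZT22 by 3.08 ± 0.71 (adjusted p = 0.33). Nr1d2 stood at 29.6, 51.2 and 71.3 at ZT4, 105, 101 and 90.7 at ZT10, 98.5, 50.99 and 46.02 at ZT16 and 37.98, 25.3 and 14.2 at ZT22. Its 3 ZT10 libraries lay above all ZT22 libraries, by 1.995 ± 0.42 (adjusted p = 0.33), and its JTK_CYCLE peak was ZT10 against ZT7 for Nr1d1. Nr1d1 overlaps Thra on the opposite strand in the mouse genome, and whether counting used the strand is not stated, so their reads may be mixed.

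The Period and Cryptochrome genes were highest at different times. Cry1, which encodes a direct inhibitor of BMAL1 and CLOCK, stood at 4.396, 2.58 and 3.14 at ZT4, 1.55, 10.6 and 8.93 at ZT10, 16.9, 47.1 and 41.2 at ZT16 and 23.1, 28.2 and 17.8 at ZT22. All 6 dark phase libraries lay above all 6 light phase libraries, ZT16 exceeded ZT4 by 2.94 ± 0.58 (adjusted p = 0.27) and JTK_CYCLE put the peak at ZT19, also with a call when the series was entered once. Its paralog Cry2 did not show this, with 22.04, 50.9 and 47.8 at ZT16 and 10.04, 0 and 42.4 at ZT22, where 1 library listed it at 0. Per3 stood at 20.9, 119 and 166 at ZT4, 62.3, 62.1 and 85.7 at ZT10, 48.5, 38.5 and 54.4 at ZT16 and 15.9, 7.18 and 19.9 at ZT22. The ZT22 libraries lay below all 9 others, and ZT4 exceeded ZT22 by 2.41 ± 0.61 (adjusted p = 0.34). Per2 was highest at ZT16, at 98.8, 172 and 171, against 24.7, 34.9 and 95.4 at ZT22, a difference of 1.69 ± 0.51 (adjusted p = 0.41). Per1, which also answers to glucocorticoids and other acute signals, overlapped between all pairs of neighbouring times, and its largest difference was 0.98 ± 0.45 between ZT16 and ZT10 (adjusted p = 0.61).

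Of the other repressors, Ciart, which encodes a further inhibitor of BMAL1 and CLOCK, was low throughout, at 7.904, 7.71 and 2.93 at ZT10 and 1.44, 1.25 and 0.275 at ZT22, a difference of 1.81 ± 0.61 (adjusted p = 0.47). Nfil3, the opponent of DBP, stood at 27.05, 40.2 and 21.9 at ZT4, 7.904, 5.83 and 2.14 at ZT10, 11.6, 39.5 and 38.1 at ZT16 and 7.77, 19.4 and 40.7 at ZT22. Its ZT10 libraries lay below all ZT4 libraries, by 2.37 ± 0.62 (adjusted p = 0.35), without a JTK_CYCLE call. Bhlhe40 and Bhlhe41, which encode the DEC repressors, had adjusted p-values of 0.58 and 0.61 and no JTK_CYCLE call. Bhlhe41 was low, with 6.04, 7.79 and 4.14 at ZT10 and 2.98, 0.144 and 0.07 at ZT16.

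Of the 18 clock genes, Dbp had the largest difference between time means on the log2 scale. It stood at 15.8, 32.7 and 112 at ZT4, 55.3, 32.4 and 64.5 at ZT10, 31.8, 9.96 and 12.2 at ZT16 and 2.82, 2.58 and 1.005 at ZT22. All light phase libraries lay above all ZT22 libraries, and ZT10 exceeded ZT22 by 4.04 ± 0.64 log2 units (adjusted p = 0.24). Dbp lies at chr7:52960617-52965573, plus strand (build mm9), and Cry1 at chr10:84594445-84647799, minus strand. The adjusted p of Dbp passed 0.05 when the spread was estimated from all 36 macrophage libraries of the table (adjusted p = 0.016), as did that of Cry1 (adjusted p = 0.033). Counting this fit, Dbp passed in 5 and Cry1 in 4 of 22 alternatives to the main fit. Tef, a second PAR bZIP gene, was at 184, 143 and 132 at ZT16 and 80.2, 96.5 and 53.1 at ZT22, a difference of 1.02 ± 0.39 (adjusted p = 0.51), and was called by JTK_CYCLE. Hlf, the third, was at 13.8, 10.3 and 13.4 at ZT10 and 17.3, 23.9 and 31.6 at ZT16 (adjusted p = 0.77), with no call. With the mean level of hepatocyte markers as a covariate, which itself separates light from dark libraries, the direction turned for Arntl (ZT22 minus ZT10, -0.0573), Nr1d2 (ZT10 minus ZT22, -0.15) and Ciart (ZT10 minus ZT22, -0.24), and for Rora, Per1, Bhlhe41 and Hlf. Dbp, Cry1, Nr1d1, Per2, Per3 and Nfil3 kept their direction in this fit, in which Dbp had 1.59 and Cry1 1.75.

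**Figure D3:**
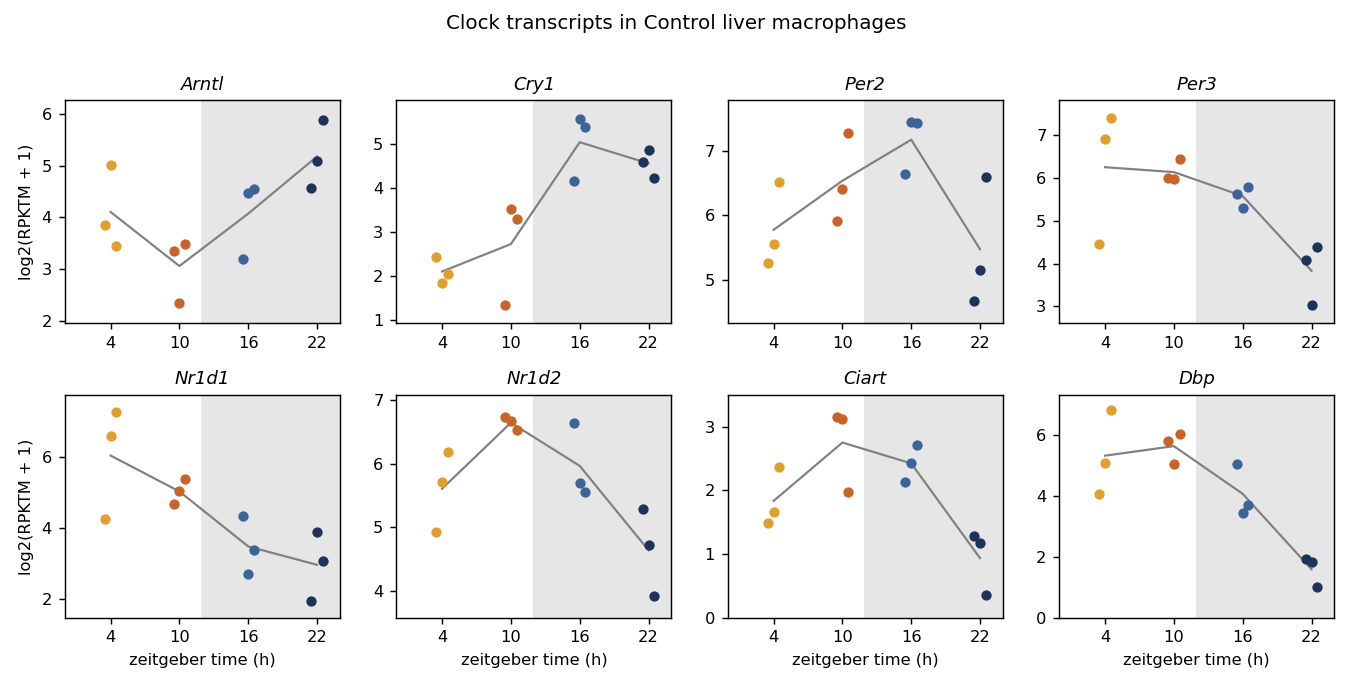
Levels of 8 clock transcripts as log2(RPKTM + 1) (y axis) against zeitgeber time in hours (x axis), where points are single libraries, the line joins the means of 3, and the dark phase is shaded. Arntl is lowest at ZT10 and highest at ZT22, Cry1 is high in the 6 dark phase libraries, and Dbp, Nr1d1, Nr1d2 and Per3 are lowest at ZT22.

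Hepatocytes of the Control mice were normalized in a table of their own and are therefore set beside the macrophages without a test. By means of RPKTM values, not of log2 levels, the clock genes had the same highest time in 8 of 18 cases. All 18 had the higher value in hepatocytes at their highest time, and 11 of 18 the larger ratio of highest to lowest time mean. Hepatocyte means of Arntl at ZT4, ZT10, ZT16 and ZT22 were 36.7, 6.49, 83.9 and 116 RPKTM, those of Cry1 24.9, 38.1, 161 and 131 and those of Nr1d1 257, 86.2, 11.4 and 8.28. These 3 genes had the same highest time in both isolates. For Dbp the hepatocyte means were 115, 191, 18.1 and 8.74, highest at ZT10, while the macrophage mean was 53.5 at ZT4 and 50.7 at ZT10. On the log2 scale the macrophage mean of Dbp was higher at ZT10, at 5.64 against 5.32 at ZT4. Since macrophage isolates held hepatocyte RNA, the share of the clock signal that came from hepatocytes was not tested. Against macrophages of RevDKO mice, which lack Nr1d1 and Nr1d2 in hepatocytes, no gene of 13946 had a different time course at an adjusted p of 0.05 in limma (0%), and 842 had an unadjusted p under 0.05 (6.04%). Without ZT22 replicate 1 of the Control mice, 8 genes passed an adjusted p of 0.05. Among the named genes the smallest interaction p-values were those of Fasn (adjusted p = 0.80), Dmbt1 (adjusted p = 0.82) and Cry1 (adjusted p = 0.82).

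The 12 genes with the smallest F test p among those with a time mean over 20 RPKTM, a group that includes Dbp, were led by the 2 genes that passed for ZT16 minus ZT4. Hist1h1d, which encodes an H1 linker histone, stood at 97.9, 95.0 and 95.4 at ZT4, 41.8, 77.2 and 68.1 at ZT10, 19.6, 12.3 and 18.1 at ZT16 and 35.2, 43.9 and 56.98 at ZT22. The ZT4 libraries agreed closely with each other and the ZT16 libraries lay below all others, so that ZT16 was lower than ZT4 by 2.48 ± 0.32 log2 units (adjusted p = 0.026 for the pair, F test adjusted p = 0.17). Linker histone genes are near-identical in part, and reads may be shared among them. Dmbt1, a secreted scavenger receptor cysteine-rich protein of epithelia, stood at 39.9, 52.6 and 49.1 at ZT4, 21.6, 34.6 and 6.27 at ZT10, 2.34, 1.52 and 1.23 at ZT16 and 25.6, 44.3 and 13.4 at ZT22. Its ZT16 libraries lay below all others, 4.17 ± 0.56 below ZT4 (adjusted p = 0.026 for the pair, F test adjusted p = 0.17), and 2.09 with the hepatocyte marker covariate. Leaving out any 1 library of ZT4 or ZT16 left 0 genes past the threshold for this pair, as did the hepatocyte marker covariate, and the count was 1 without ZT10 replicate 1 or ZT22 replicate 1 and 4 without ZT22 replicate 3. On mm9 Hist1h1d lies at chr13:23646901-23647676, plus strand, and Dmbt1 at chr7:138175583-138265142, plus strand. Hepatocyte means of Hist1h1d at ZT4, ZT10, ZT16 and ZT22 were 46.9, 48.4, 16.8 and 49.7, also lowest at ZT16, with SDs of 6.30 to 34.6. Those of Dmbt1 were 29.9, 7.21, 9.16 and 22.3, highest at ZT4 as in the macrophage isolates but lowest at ZT10. The part of hepatocyte RNA was not tested. Spp1, the 1 cholangiocyte marker of 2 tested with an F test p under 0.05, was also higher at ZT4 than at ZT16, at 51.2, 62.97 and 38.97 against 23.5, 15.7 and 18.3, while the defining markers Krt19, Krt7 and Epcam stayed under 5 RPKTM in every library.

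6 of the 12 genes were highest at ZT4. Gdf15, a stress-induced hormone of the TGF-β family, stood at 14.7, 47.8 and 45.8 at ZT4, 2.596, 4.44 and 8.58 at ZT10, 1.31, 2.48 and 1.89 at ZT16 and 3.02, 5.57 and 2.44 at ZT22, and the ZT4 libraries lay above all others (ZT4 minus ZT16, 3.53 ± 0.58, adjusted p = 0.24). Pim3, a serine/threonine kinase, was at 66.6, 179.7 and 139 at ZT4 and within 19.4 to 21.4 at ZT22 (2.50 ± 0.40, adjusted p = 0.24). Ctcflos, a noncoding antisense gene, was at 15.5, 41.97 and 51.3 at ZT4 and 0.97, 0 and 4.098 at ZT22 and can share reads with its partner on the other strand. Adam11, of the ADAM family of membrane proteins, was at 14.9, 9.16 and 45.4 at ZT4 and 1.797, 0 and 0 at ZT22, where 2 libraries listed it at 0.

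Genes known from other liver cells made up part of the rest. Ecm1, an extracellular matrix protein made by stellate cells and on the stellate list, stood at 90.4, 121 and 152 at ZT4, 73.4, 76.8 and 103 at ZT10, 230.2, 297 and 283 at ZT16 and 88.98, 107 and 106 at ZT22, and the ZT16 libraries lay above all others (ZT16 minus ZT10, 1.67 ± 0.27, adjusted p = 0.24). Prelp, a matrix proteoglycan, was at 46.2, 23.2 and 27.95 at ZT10 and 82.7, 127 and 102 at ZT16 (1.69 ± 0.31, adjusted p = 0.24). Jam2, a junction protein of endothelium, was at 33.6, 39.8 and 46.05 at ZT4 and 199, 138 and 103 at ZT22 (1.81 ± 0.31, adjusted p = 0.24). Elovl3, a fatty acid elongase with a strong daily rhythm in liver, stood at 70.5, 36.2 and 26.2 at ZT4, 11.2, 10.6 and 8.86 at ZT10, 53.9, 164 and 179 at ZT16 and 60.2, 241 and 730.1 at ZT22. It was lowest at ZT10 and ran from 60.2 to 730.1 within ZT22 (ZT22 minus ZT10, 4.31 ± 0.72, adjusted p = 0.24). Hepatocyte means of Elovl3 at the 4 times were 846, 148, 1564 and 2876 RPKTM, with the same lowest and highest time, and the difference was 0.94 with the hepatocyte marker covariate. Tmem176a, a membrane protein of myeloid cells, was at 146, 169 and 161 at ZT22, above the 52.3 to 86.2 of the other 9 libraries (1.40 ± 0.25 against ZT10, adjusted p = 0.24). Its hepatocyte means were 258, 249.9, 291 and 489. The hepatocyte mean was highest at ZT22, but with an SD of 432 there, against 2.08 to 58.3 at the other times.

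**Figure D4:**
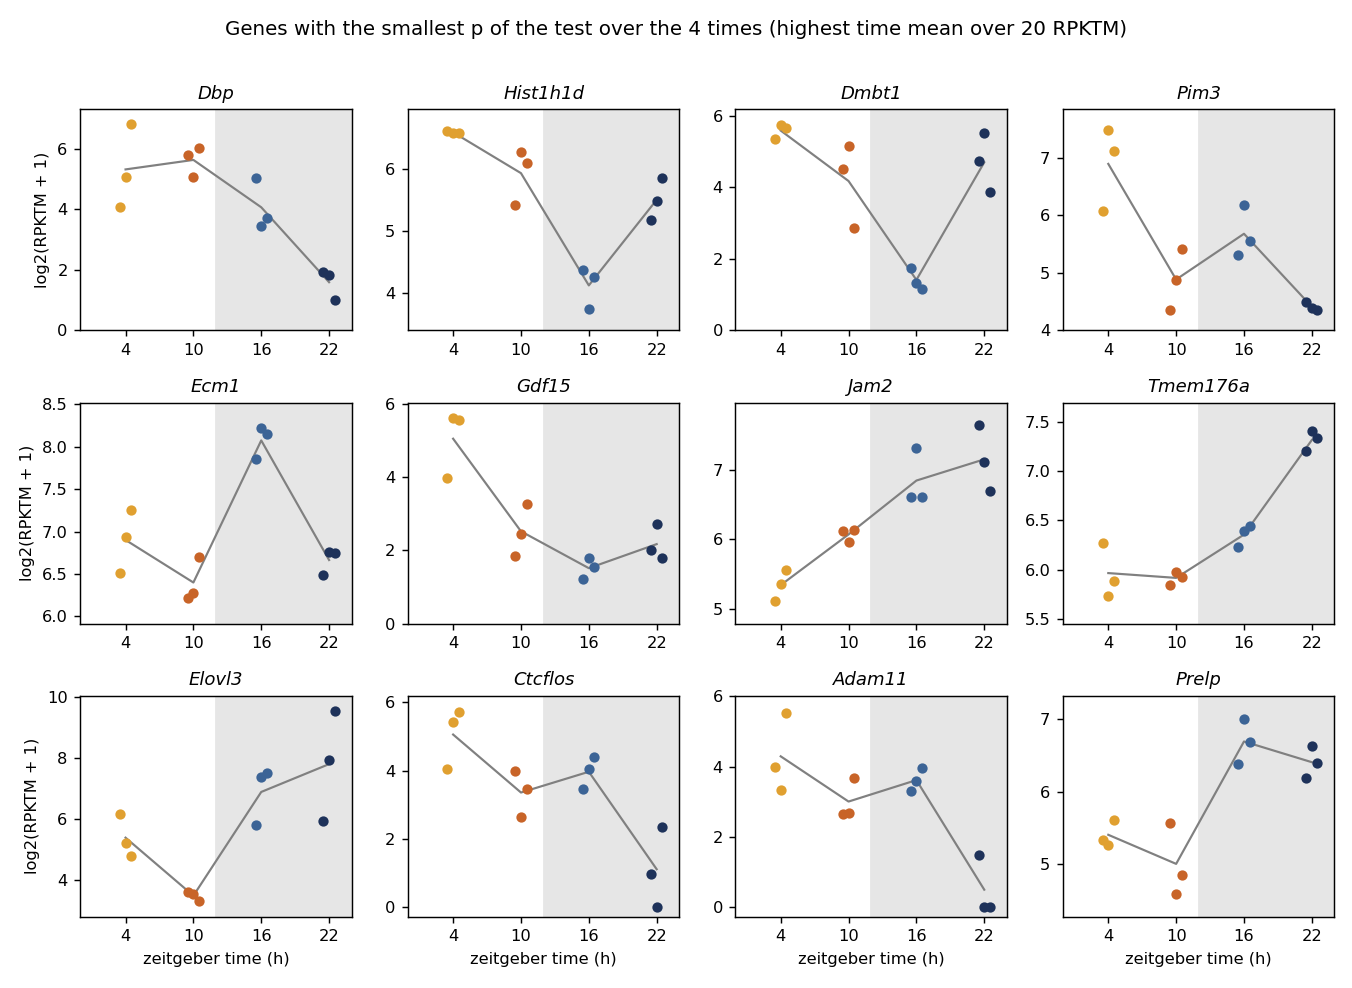
Levels of the 12 genes with the smallest F test p among genes with a time mean over 20 RPKTM, as log2(RPKTM + 1) (y axis) against zeitgeber time in hours (x axis), where points are single libraries, lines join the means of 3, and the dark phase is shaded. Hist1h1d and Dmbt1 are lowest in the 3 ZT16 libraries, Ecm1 is highest there, and Tmem176a is highest in the 3 ZT22 libraries.

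Immediate early genes, which are induced within minutes of a stimulus and many of which encode transcription factors, included a group that was highest in the ZT4 libraries. Of 18 tested, 8 had an F test p under 0.05 and 7 were called by JTK_CYCLE (10.5% and 20.1% of all genes), with a median difference of 1.52 log2 units (0.84 over all genes). The time mean was highest at ZT4 in 9 of the 18 (26.04% of all genes) and at ZT22 in 7 (26.1%). Of the 8 genes, 6 were highest at ZT4 and 2 at ZT22 (41.0% and 29.98% of all genes with such a p). Another 5 genes on the list stayed under the filter. Jun, a subunit of the AP-1 factor, stood at 174, 162 and 229 at ZT4, 84.2, 85.8 and 82.2 at ZT10, 69.3, 54.1 and 63.8 at ZT16 and 92.8, 50.3 and 30.6 at ZT22. Every ZT4 library lay above every other library, and ZT4 exceeded ZT22 by 1.81 ± 0.35 (F test adjusted p = 0.29). Junb was at 69.3, 178 and 226 at ZT4 and 36.7, 23.5 and 20.9 at ZT16 (2.38 ± 0.54, adjusted p = 0.33). With the hepatocyte marker covariate the differences of Jun and Junb were 0.95 and 1.06. Hepatocyte means at ZT4, ZT10, ZT16 and ZT22 were 238, 141, 116 and 104 for Jun and 98.3, 41.0, 24.2 and 33.0 for Junb. Both genes had the same highest and lowest time in both tables. Hepatocyte means of Jund, which follows, were 75.5, 74.1, 72.1 and 78.0, highest at ZT22. The part of hepatocyte RNA in these differences was not tested. Jund, whose product both activates and restrains AP-1 targets, was at 60.1, 126 and 158 at ZT4 and 35.98, 13.2 and 37.1 at ZT22 (1.98 ± 0.44, adjusted p = 0.34, JTK_CYCLE peak ZT7). Ier2 and Zfp36 had the same order, with differences between ZT4 and ZT16 of 1.77 ± 0.43 and 1.84 ± 0.51. Egr1, a zinc finger factor, was also highest at ZT4, at 12.8, 43.6 and 29.3, and Klf4 ran the other way, at 5.53, 0 and 0 at ZT4 and 20.2, 31.2 and 9.31 at ZT22 (3.36 ± 0.69, adjusted p = 0.29). Fos, the partner of the JUN proteins, did not follow them, at 76.3, 46.05 and 22.04 at ZT4 and 135, 81.1 and 6.99 at ZT22 (adjusted p = 0.72).

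Some heat shock genes, which encode chaperones for damaged proteins, were higher in the dark phase. Of 16 tested, 3 had an F test p under 0.05 and 6 were called by JTK_CYCLE (10.5% and 20.1% of all genes), with a median difference of 0.76, below that of all genes. Hsph1, a chaperone of the HSP110 family, stood at 28.2, 24.3 and 15.04 at ZT4, 23.7, 15.5 and 30.98 at ZT10, 46.9, 76.7 and 80.01 at ZT16 and 38.2, 94.5 and 81.7 at ZT22. All 6 dark phase libraries exceeded all 6 light phase libraries (ZT22 minus ZT4, 1.57 ± 0.41, adjusted p = 0.29). The hepatocyte markers separated the same libraries, and with them as a covariate the difference of Hsph1 was 0.60. Hepatocyte means at ZT4, ZT10, ZT16 and ZT22 were 144, 109, 255 and 218 for Hsph1 and 5.27, 4.55, 32.1 and 18.2 for Hspa1b, and the part of hepatocyte RNA was not tested. Hspa1b, an inducible HSP70, was at 2.46, 6.34 and 8.51 at ZT4, 20.7, 28.02 and 24.8 at ZT16 and 34.2, 39.6 and 10.6 at ZT22 (adjusted p = 0.33), and its near-identical copy Hspa1a may share its reads. Dnaja1, an HSP40 co-chaperone, was at 35.5, 16.9 and 18.9 at ZT4 and 43.5, 55.4 and 54.1 at ZT22 (adjusted p = 0.41). Cirbp, which encodes a cold-inducible RNA-binding protein, was at 21.7, 19.9 and 49.8 at ZT4 and 10.6, 14.2 and 13.2 at ZT22 and was called by JTK_CYCLE (adjusted p = 0.48 in the F test). Rbm3, its relative, was not called.

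Among 11 glucocorticoid-responsive and metallothionein genes tested, 4 had an F test p under 0.05 and 4 were called by JTK_CYCLE (10.5% and 20.1% of all genes). Fkbp5, an HSP90 co-chaperone induced by glucocorticoids, stood at 29.9, 69.9 and 44.5 at ZT4, 55.1, 66.9 and 54.5 at ZT10, 143, 334 and 105 at ZT16 and 31.7, 81.8 and 50.5 at ZT22. The ZT16 libraries lay above all others (1.89 ± 0.46 over ZT4, adjusted p = 0.33). Cdkn1a, the cell cycle inhibitor p21, was at 1.86, 1.74 and 0 at ZT10 and 8.07, 9.57 and 18.1 at ZT22 (2.62 ± 0.58, adjusted p = 0.32), and its JTK_CYCLE peak was ZT19. Zbtb16, a zinc finger factor induced by glucocorticoids, did not run with Fkbp5: it was at 206, 327 and 295 at ZT4 and 9.53, 37.1 and 64.02 at ZT10 (3.20 ± 0.86, adjusted p = 0.34, 1.30 with the hepatocyte marker covariate). Hepatocyte means at ZT4, ZT10, ZT16 and ZT22 were 72.0, 112, 456 (SD 343) and 192 for Fkbp5, with the same highest and lowest time. They were 13.3, 0.742, 51.9 and 34.0 for Cdkn1a and 260, 74.5, 385 and 147 for Zbtb16. Cdkn1a and Zbtb16 were lowest at ZT10 in both tables but highest at ZT16 in hepatocytes. The part of hepatocyte RNA was not tested.

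**Figure D5:**
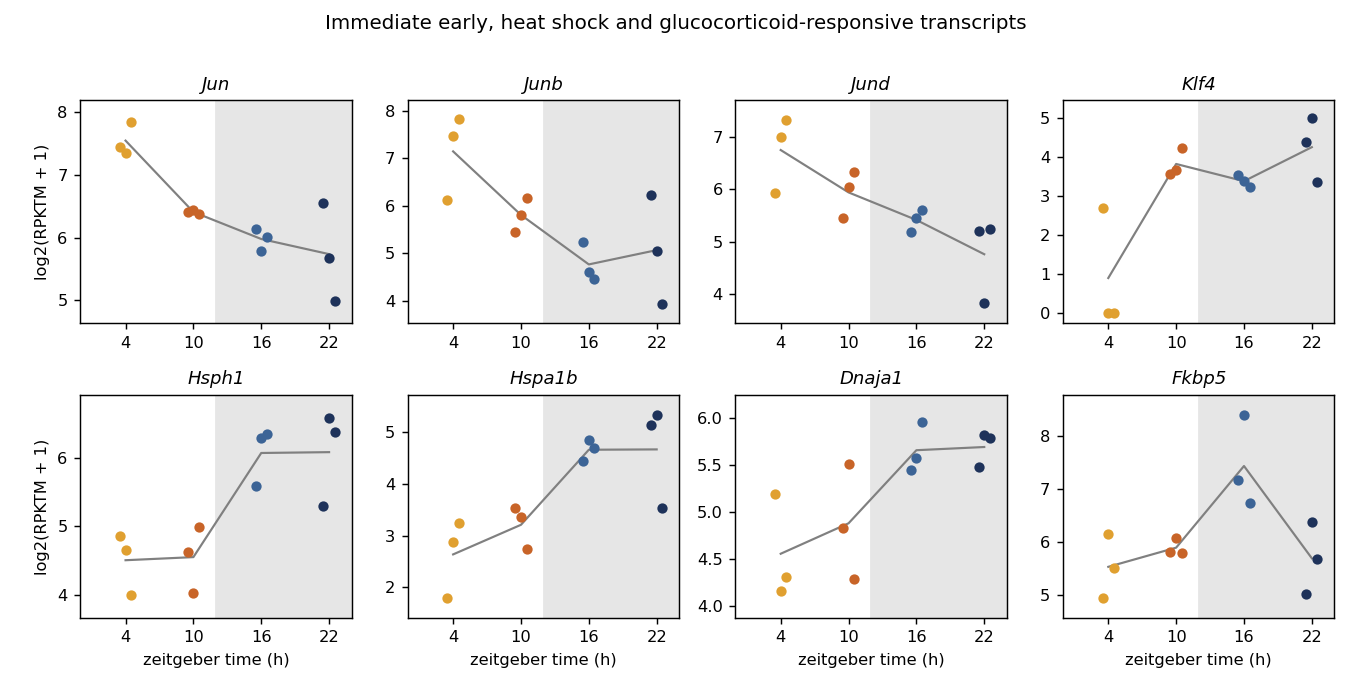
Levels of 4 immediate early genes (top row) and of 3 heat shock genes and Fkbp5 (bottom row) as log2(RPKTM + 1) (y axis) against zeitgeber time in hours (x axis), where points are single libraries, lines join the means of 3, and the dark phase is shaded. Jun is highest in the 3 ZT4 libraries, Hsph1 is higher in the 6 dark phase libraries, and Fkbp5 is highest at ZT16.

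Lipid synthesis genes included a few that were uneven over the day in the macrophage isolates. Of 17 SREBP pathway genes and targets tested, 3 had an F test p under 0.05 and 4 were called by JTK_CYCLE, near the shares of all genes (10.5% and 20.1%). Insig2, which retains SCAP and the SREBP factors in the endoplasmic reticulum, stood at 78.3, 52.3 and 23.6 at ZT4, 15.3, 19.98 and 15.1 at ZT10, 40.1, 104 and 119 at ZT16 and 44.7, 134 and 339.8 at ZT22, lowest at ZT10 (2.86 ± 0.64, adjusted p = 0.33). Scd1, the stearoyl-CoA desaturase, was at 428, 319 and 121 at ZT4 and 622, 2399 and 1959 at ZT22 (2.48 ± 0.61, adjusted p = 0.34, 0.70 with the hepatocyte marker covariate). Fasn, the fatty acid synthase, was at 2074, 4074 and 4707 at ZT10 and 386, 867 and 1580.1 at ZT22 (2.08 ± 0.58, adjusted p = 0.42). The hepatocyte means at ZT4, ZT10, ZT16 and ZT22 were 621, 278, 796 and 1234 for Insig2, 2252, 11144, 9590.0 and 10197 for Scd1 and 2957, 17368, 6974 and 6167 for Fasn. With the hepatocyte marker covariate the difference of Insig2 changed sign, to -0.44. Insig2 had the same highest and lowest time in both tables and Fasn the same highest time, and each of the 3 genes was at higher values in the hepatocyte table, in which it was normalized separately. Of 9 fasting-response genes tested, 1 had an F test p under 0.05 and 2 were called by JTK_CYCLE (10.5% and 20.1% of all genes). The first was Angptl4, an inhibitor of lipoprotein lipase, at 51.4, 118 and 71.6 at ZT4 and 23.2, 28.3 and 22.1 at ZT10 (1.60 ± 0.52, adjusted p = 0.45). Pdk4, a kinase that restrains pyruvate oxidation, and Ppara, the fatty acid receptor, had an F test p above 0.05. The JTK_CYCLE calls were Pdk4, with a peak at ZT19, and Acot1. Of 8 LXR and sterol efflux genes none had an F test p under 0.05 (10.5% of all genes). Mylip, an E3 ligase for the LDL receptor, was the only one called by JTK_CYCLE (20.1% of all genes).

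Genes of macrophage identity were abundant at every time and spread widely within times. Of 21 tested, 2 had an F test p under 0.05 (10.5% of all genes) and 0 were called by JTK_CYCLE (20.1% of all genes). In 18 of the 21 the time mean was highest at ZT10 (27.7% of all genes), and the median difference between highest and lowest time was 1.16 log2 units (0.84 over all genes). With the hepatocyte marker covariate the differences of Clec4f (ZT10 minus ZT22) and Folr2, a folate receptor (ZT10 minus ZT16), changed sign, to -2.13 and -1.60. Cd5l, a secreted scavenger receptor of Kupffer cells, illustrates the spread, at 7201, 8089 and 4162 at ZT10 and 13099, 3121 and 553 at ZT22. Marco, a scavenger receptor for bacteria, was at 172, 46.7 and 157 at ZT16 and 1005, 483 and 119 at ZT22, and the groups overlapped (1.83 ± 0.64, adjusted p = 0.45). With the mean of the 21 genes as a covariate, an alternative added after the values were seen, 219 genes passed the F test.

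Lists of other macrophage functions had shares of calls near or below those of all genes (10.5% in the F test and 20.1% by JTK_CYCLE). The 7 MHC class II genes, which present antigen to T cells, were all highest at ZT10 (27.7% of all genes), as were 18 of the 21 identity genes, and none had an F test p under 0.05 or a JTK_CYCLE call. H2-Aa, a class II chain, was at 1021, 965 and 694 at ZT10 and 722, 307 and 331 at ZT16. Of 15 interferon-stimulated genes 1 had an F test p under 0.05, Stat2 (1.10 ± 0.35 for ZT4 minus ZT22, adjusted p = 0.42), and 2 were called by JTK_CYCLE. Of 18 cytokine, chemokine and feedback genes 1 did, the eosinophil-attracting chemokine Ccl24, at 96.7, 71.2 and 59.8 at ZT10 and 63.4, 39.1 and 25.5 at ZT16 (0.88 ± 0.35, adjusted p = 0.46, 0.13 with the hepatocyte marker covariate), and 3 were called by JTK_CYCLE. Of 14 phagocytosis and scavenger receptors 1 did and 3 were called by JTK_CYCLE. The gene was rhythmic by JTK_CYCLE with the series entered 2 times and once. This was Fcgr2b, the inhibitory Fc receptor, which stood at 86.6, 94.6 and 59.2 at ZT4, 171, 83.03 and 138 at ZT10, 208, 239.8 and 245 at ZT16 and 249, 175 and 159.7 at ZT22. All dark phase libraries lay above all ZT4 libraries (1.54 ± 0.32 for ZT16 minus ZT4, adjusted p = 0.29). Fcgr2b is also expressed by liver sinusoidal endothelium, whose markers were highest at ZT16 (9 of 10). Of 12 iron and heme genes 1 had an F test p under 0.05, the transferrin receptor Tfrc, at 63.9, 27.8 and 38.4 at ZT4 and 53.5, 124 and 118 at ZT16 (adjusted p = 0.45), while the iron exporter Slc40a1 went with the identity genes, at 5151, 5628 and 3245 at ZT10 and 2992, 1309 and 1044 at ZT16 (adjusted p = 0.61). With the hepatocyte marker covariate the differences of H2-Aa and Slc40a1 changed sign, to -1.50 and -2.21.

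Of 9 recruited and lipid-associated macrophage genes tested, 4 had an F test p under 0.05 and 2 were called by JTK_CYCLE (10.5% and 20.1% of all genes). Cd9, a tetraspanin, was at 4.87, 11.1 and 5.67 at ZT4 and 22.1, 40.5 and 11.1 at ZT22 (1.54 ± 0.48, adjusted p = 0.43) and peaked at ZT19 by JTK_CYCLE. Itgam, the integrin CD11b, was at 38.5, 19.1 and 12.8 at ZT16 and 123, 107 and 19.6 at ZT22 with overlap (adjusted p = 0.47). Spp1 was described above, and Itgax, the integrin CD11c, was at 8.19, 5.03 and 8.72 at ZT4 and 23.4, 34.2 and 15.5 at ZT22. Of 13 unfolded protein and integrated stress genes 3 had an F test p under 0.05 and 6 were called by JTK_CYCLE (10.5% and 20.1% of all genes). Herpud1, a component of endoplasmic reticulum-associated degradation, was at 373, 426 and 307 at ZT4 and 118, 147 and 180.3 at ZT10 (1.32 ± 0.33, adjusted p = 0.34), whereas Manf, a secreted stress protein, and Dnajb9, a chaperone, were highest at ZT22 (1.39 ± 0.36 over ZT10 and 1.25 ± 0.39 over ZT4). With the hepatocyte marker covariate the differences of Herpud1 and Dnajb9 were 0.68 and 0.59. Of 8 Nrf2 targets 1 had an F test p under 0.05, Gclc, of glutathione synthesis (adjusted p = 0.46), of 10 cell cycle genes 0, and of 11 other clock-linked genes 1. That last gene was Usp2, a ubiquitin-specific protease and clock output, at 4.14, 2.19 and 8.69 at ZT4 and 13.6, 23.9 and 15.5 at ZT16 (1.75 ± 0.45, adjusted p = 0.38). Of the genes the study singled out in macrophages, Jund is given above, Eno1 was called by JTK_CYCLE (adjusted p = 0.54 in the F test), and Pdgfrb was not called (adjusted p = 0.68). The difference of Eno1 changed sign with the hepatocyte marker covariate, to -0.18. The study chose these genes on these libraries, so they are not independent evidence.

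Markers of other liver cells were uneven over the day as well. Of 10 stellate and fibroblast markers 8 had an F test p under 0.05 (10.5% of all genes) and 5 were called by JTK_CYCLE (20.1%). Their summed level was 734 to 1165 RPKTM at ZT4, 897 to 1098 at ZT10, 1670.3 to 2015 at ZT16 and 982 to 1142 at ZT22, so the ZT16 libraries lay above all others. Dcn, the proteoglycan decorin, stood at 109.5, 183 and 114 at ZT4, 195, 152 and 196 at ZT10, 428, 356 and 266 at ZT16 and 376, 247 and 239 at ZT22 (1.38 ± 0.30 for ZT16 minus ZT4, adjusted p = 0.32). Col1a1, the collagen I chain, did not follow Dcn: it was at 23.9, 44.7 and 63.4 at ZT4, 6.99, 7.66 and 7.66 at ZT10 and 25.4, 48.98 and 37.3 at ZT16 (2.31 ± 0.43 for ZT4 minus ZT10, adjusted p = 0.25).

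Of 10 endothelial markers 2 had an F test p under 0.05 and 7 were called by JTK_CYCLE (10.5% and 20.1% of all genes), and 9 were highest at ZT16 (20.15% of all genes). Clec4g, a lectin of sinusoidal endothelium, was at 160.3, 241 and 227 at ZT4, 460.2, 439.6 and 412 at ZT16 and 559, 104 and 185 at ZT22 (adjusted p = 0.56). Summed endothelial levels were 5137 to 6355 at ZT16 and 1994 to 6532 at ZT22. Of 20 hepatocyte markers 2 had an F test p under 0.05 and 12 were called by JTK_CYCLE (10.5% and 20.1% of all genes). These 2 were Cyp3a11, a cytochrome P450 highest at ZT16, and Pck1, the gluconeogenic enzyme, at 1749.8, 2183 and 2043 at ZT4 and 430.5, 87.5 and 759 at ZT22 (adjusted p = 0.32). Neutrophil markers were low, with summed levels of 86.6 to 99.2 at ZT4, 84.9 to 106 at ZT10, 34.5 to 75.01 at ZT16 and 62.2 to 147 at ZT22, and 4 of the 5 tested had an F test p under 0.05 (10.5% of all genes). S100a8, the neutrophil calgranulin, stood at 6.39, 9.74 and 26.8 at ZT4, 8.02, 4.46 and 15.1 at ZT10, 4.41, 4.08 and 4.61 at ZT16 and 24.8, 27.5 and 15.7 at ZT22, highest at ZT22 (2.11 ± 0.54 over ZT16, adjusted p = 0.38), while the defining marker Ly6g stayed at or under 0.364 RPKTM. The hemoglobin gene Hbb-b1 was at 179, 133 and 242 at ZT4 and 429, 487 and 259 at ZT16 (adjusted p = 0.53). All 5 erythroid markers tested were highest at ZT16 (20.15% of all genes). Among these 5, 3 had an F test p under 0.05 (Hba-a1, Hba-a2 and Hbb-b2) and 3 were called by JTK_CYCLE (10.5% and 20.1% of all genes). T and NK cell, B cell and dendritic cell markers gave 0 genes with an F test p under 0.05 of 3, 5 and 3 tested. Cd3e stayed under 10 RPKTM, and Cd79a was listed at 0 in 4 libraries. How far these other cells account for the differences in the lists above was not tested.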

How the data were processed

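Per the labels and the study's methods, stranded libraries were made from RNA depleted of ribosomal RNA, and the authors mapped them to mm9 by STAR and quantified RefSeq genes in Homer, with versions and strand setting not given in the sources used here. The deposited unit, RPKTM, is 10 times an RPKM, and the 36 macrophage libraries of the table were quantile normalized together over 42322 transcripts, which hides any overall rise or fall and leaves depth unknown. For each of 25094 symbols the transcript of highest mean in the 12 libraries was kept, and the 12179 with at least 3 values over 5 were tested on log2(RPKTM + 1), so differences of low genes are understated. With limma 3.58.1 (R 4.3.3, trend), 1 mean per time was fitted to the 12 libraries and tested by an F test, a 24 h cosine and 6 pairs, with Benjamini-Hochberg adjustment over all genes and a threshold of 0.05. An SE is moderated and belongs to the difference of the pair, while the adjusted p beside it is the F test's unless marked as for the pair. Time courses of RevDKO and Control mice were compared by an interaction in a fit of 36 libraries. JTK_CYCLE was coded with scipy 1.17.1, numpy 2.4.6 and pandas 2.3.3 under Python 3.11.15, with periods of 18 and 24 h and 7 patterns, and a call needed a best period of 24 h and at least 2 values over 5. Both were tested on simulated data. Table starts matched annotated mm9 starts counted from 1 in 49.8% of transcripts and from 0 in 5.12%, so coordinates are 1-based. Genes named are all measured clock genes, the 12 smallest F test p-values with a time mean over 20, up to 3 genes per direction past the threshold for ZT16 minus ZT4 and ZT22 minus ZT10, the 3 smallest p-values per other list and single markers; members named otherwise (Fos, Egr1, Ier2, Zfp36, Cirbp, Rbm3, Cd5l, Col1a1, Cyp3a11, Pck1, Itgax) were chosen after their values were seen. Some list members are counted in their lists but not reported here. The libraries, lists and tests were chosen with earlier results of these data known. Alternatives covered the pseudocount, filter, transcripts, covariates, weights, libraries, a block for the replicate number and a fit of all 36 libraries.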

Additional observations from a re-analysis of the deposited data

How the results depend on the processing

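Leaving out each library in turn gave 0 to 275 genes in the F test over the 4 times, 0 to 162 in the cosine test, 0 to 4 for ZT16 minus ZT4, 0 to 354 for ZT22 minus ZT10, 0 to 1 for ZT10 minus ZT4, 0 to 0 for ZT16 minus ZT10, 0 to 109 for ZT22 minus ZT16, 0 to 807 for ZT22 minus ZT4, 0 to 8 for the time course of RevDKO minus Control and 1999 to 3440 for JTK_CYCLE; every count over 10 of the F, cosine and pair tests came without ZT22 replicate 1 or 3. With array quality weights the F test gave 38 genes, the cosine test 36 and the pairs 74 for ZT16 minus ZT4, 18 for ZT10 minus ZT4, 68 for ZT16 minus ZT10. The fit of 36 libraries gave 7 and 27 genes and 4 for ZT16 minus ZT4, 6 for ZT22 minus ZT10, 1 for ZT10 minus ZT4, 86 for ZT22 minus ZT4. Without a filter the counts were 3 and 4, then 9 for ZT16 minus ZT4, 1 for ZT10 minus ZT4, 1 for ZT16 minus ZT10, 3 for ZT22 minus ZT4. Without the 2 libraries in which Alb holds the top values they were 241 and 333, then 0 for ZT16 minus ZT4, 423 for ZT22 minus ZT10, 12 for ZT16 minus ZT10, 2 for ZT22 minus ZT16, 388 for ZT22 minus ZT4, 8 for RevDKO minus Control and 3818 for JTK_CYCLE. With the hepatocyte covariate the cosine test gave 2 and ZT16 minus ZT4 0. Chosen after seeing the data, the macrophage covariate gave 219 and 128, then 113 for ZT16 minus ZT4, 43 for ZT22 minus ZT10, 1 for ZT10 minus ZT4, 733 for ZT22 minus ZT4 and 2 for RevDKO minus Control, and the fit without the ZT22 libraries 61, then 55 for ZT16 minus ZT4, 43 for ZT10 minus ZT4, 1 for ZT16 minus ZT10. JTK_CYCLE gave 379 with the series entered once, 1162 with adjustment over genes and 4604 over all transcripts. The cause of these shifts was not tested. Deviations of same-numbered libraries from their time means correlated at 0.00718 to 0.36, with 13 of 18 over 0.1, against -0.329 to 0.0688 for other numbers. Same-numbered libraries thus tended to deviate together, which the main fits leave out. What the numbers stand for is not stated in the labels. With the replicate block the F test gave 0 genes and the pairs 9 for ZT10 minus ZT4, 204 for ZT22 minus ZT4. Of 1865 values of single named genes under the alternatives, 1749 kept their direction and side of the threshold, 97 passed it and 19 changed sign. Of these, 18 came with the hepatocyte covariate, namely -0.0573 for Arntl (ZT22 minus ZT10), -0.82 for Rora (ZT22 minus ZT10), -1.67 for Per1 (ZT16 minus ZT10), -0.15 for Nr1d2 (ZT10 minus ZT22), -0.24 for Ciart (ZT10 minus ZT22), -1.51 for Bhlhe41 (ZT10 minus ZT16), -0.42 for Hlf (ZT16 minus ZT10), -0.44 for Insig2 (ZT22 minus ZT10), -1.60 for Folr2 (ZT10 minus ZT16), -0.98 for H2-Eb1 (ZT10 minus ZT16), -1.58 for H2-DMa (ZT10 minus ZT22), -1.50 for H2-Aa (ZT10 minus ZT16), -0.35 for Mx1 (ZT4 minus ZT16), -2.21 for Slc40a1 (ZT10 minus ZT16), -0.36 for Ccnd1 (ZT10 minus ZT22), -0.0867 for Mki67 (ZT10 minus ZT16), -0.18 for Eno1 (ZT22 minus ZT10), -2.13 for Clec4f (ZT10 minus ZT22), and Rora changed sign without ZT22 replicate 3, at -0.0561, the lowest of its values with 1 library left out, the highest being 0.79. Depth is unknown, so what low counts limit could not be judged.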

Other observations

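Small noncoding RNA genes, a group picked out after its values were seen and given here as a description with no test of the group, were low in the ZT22 libraries. Of 86 such genes tested (small nucleolar and Cajal body RNAs, which guide RNA modification, and related small RNAs such as Rmrp), 75 had their lowest time mean at ZT22 (30.2% of all genes tested did), 32 their highest at ZT4 (26.04% of all genes) and 48 at ZT10 (27.7%). An unadjusted F test p under 0.05 was found for 29 (10.5% of all genes) and a JTK_CYCLE call for 36 (20.1%). The mean log2 level of the 86 was 6.99, 7.02 and 6.30 at ZT4, 7.15, 6.27 and 7.06 at ZT10, 7.79, 5.45 and 5.36 at ZT16 and 5.01, 4.53 and 6.30 at ZT22, so that ZT16 replicate 1 and ZT22 replicate 3 did not follow the other libraries of their times. Snord17 stood at 6495, 13099 and 6495 at ZT4, 4479, 1863 and 7201 at ZT10, 5151, 1567 and 1636 at ZT16 and 792, 120.2 and 1309 at ZT22 RPKTM. Malat1, a long noncoding RNA of the nucleus, stood at 23849, 23849 and 19121 at ZT4, 19121, 15656 and 15656 at ZT10, 14228, 9221 and 9221 at ZT16 and 15656, 5379 and 4341 at ZT22.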
